A study of Mus musculus with 4 samples.

Results

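The genes of the motile cilium were followed in mouse lung after delivery of Cre recombinase to the airways. They were chosen by name. The families taken were the axonemal dynein chains (Dnah, Dnaic, Dnali and Dnal), the dynein assembly factors (Dnaaf), radial spoke proteins (Rsph), tektins (Tekt), cilia and flagella associated proteins (Cfap) and intraflagellar transport proteins (Ift). To these were added Ccdc39, Ccdc40, Ccdc113, Spag6, Spag16, Spag17, Hydin, Ak7, Mlf1, Tppp3 and Dynlrb2. This gave 81 genes, covered by 130 probe sets, of 18193 genes on the arrays. RNA came from the lungs of B6/J mice, with 2 wild type and 2 IKKa floxed samples, each measured on 1 Affymetrix array. All 4 samples, controls included, were taken 4 months after an adenovirus carrying Cre was put into the trachea. Cre cuts out DNA between loxP sites, so a floxed allele is lost only in cells that the virus reached, while the RNA is that of lung tissue as a whole. The promoter that drove Cre, and the age and sex of the mice, were not given in the sources used here. IKKα is a kinase of the NF-κB pathway, and its own gene is not analysed here.

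Motile cilia beat on the multiciliated cells of the airways and move mucus towards the throat. Each has a core, the axoneme, built of doublet microtubules around a central pair. Outer and inner dynein arms on the doublets are the motors, radial spokes and the central pair regulate them, and a ruler made of CCDC39 and CCDC40 sets their spacing. Dynein arms are put together in the cytoplasm by assembly factors, and intraflagellar transport carries parts along the axoneme of motile and of primary cilia alike. Inherited defects of many of these genes cause primary ciliary dyskinesia, a disease of impaired mucus clearance.

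Most motile cilium genes had a slightly lower signal in the floxed samples, and 1 of them passed the test. Of the 81, 72 had a mean level above the 30th percentile of all genes and were tested. Their median log2 fold change, floxed over wild type on the log2(intensity + 16) scale, was -0.30, a 1.23-fold difference, and 66 of the 72 lay below 0, against 50% of all 12735 genes tested. The median of all genes was 0.000061. At a limma adjusted p under 0.05, 1 of the 72 passed in either direction, against 1.74% of all genes. It was Dnaaf5, which fell, as did 0.738% of all genes, and none rose, against 1.01%. Both floxed values lay below both wild type values for 48 of the 72, against 22.2% of all genes tested, and both lay above for 3, against 23.6%. At an unadjusted p under 0.05, 27 members were lower, against 7.13% of all genes, and 1 was higher. Leaving out wild type replicate 1 lowered this count of 28 in both directions to 18, and leaving out floxed replicate 1 raised it to 41. In bulk tissue, fewer ciliated cells and less RNA per ciliated cell cannot be told apart.

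**Figure D1:**
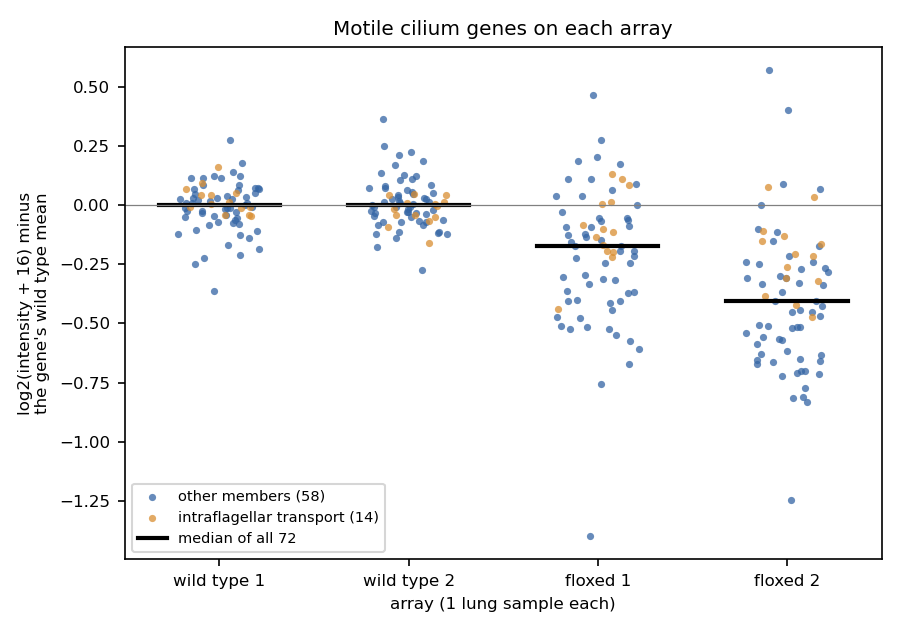
Each point is 1 of the 72 tested genes on 1 array, as log2(intensity + 16) minus that gene's mean over the 2 wild type arrays, so the wild type arrays centre on 0 by construction. Black lines are medians, at -0.17 for floxed 1 and -0.41 for floxed 2, and orange points are the 14 intraflagellar transport genes.

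The 2 floxed samples did not sit at the same level. Measured from the wild type mean, the median member stood at -0.17 in floxed replicate 1 and at -0.41 in floxed replicate 2, which are also the medians with the other floxed array left out. Of the 72 genes, 55 were lower in floxed 2 than in floxed 1, whereas the wild type arrays divided evenly, with 36 lower in wild type 2. Floxed 1 lay below both wild type values for 50 genes and floxed 2 for 62, against 4830 and 4740 of all 12735 genes tested. The ratio of 3′ to 5′ signal grows as RNA breaks down. For Gapdh it was 1.18 and 1.10 on the wild type arrays, 1.44 on floxed 1 and 1.68 on floxed 2. Of the 2 floxed arrays, floxed 2 had the higher ratio and the lower median. For actin the ratio was 2.65 and 2.46 against 2.67 and 2.77. The part of RNA quality in the result was not tested. The groups also differed in sex-linked genes, since Xist, expressed from the inactive X chromosome, read 31.8 and 22.9 on the wild type arrays against 4246 and 4629 on the floxed ones, and the Y-linked Uty 189 and 184 against 4.63 and 2.34. Genotype and sex therefore cannot be told apart. Of the members, 1, Cfap47, lies on the X chromosome, and it was too low to be tested.

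Since most members lay on one side of 0, their promoters were searched for the letters bound by factors known to act on cilium genes. RFX factors bind the X-box, a pair of inverted arms, and FOXJ1 is a forkhead factor. RefSeq promoters of build GRCm38.p6, from 250 bases before to 50 after each start, matched 68 of the 81 members by symbol. On either strand, the X-box arm GTTGCC was found in 25 of the 68 (36.8%), against 14.1% of 27025 genes in the table and 15.1% of the 10250 that were also tested on the arrays. An inverted pair, GTTNCC and GGNAAC with 0 to 3 bases between them, stood in 4 of 68 (5.88%), Dnaaf6, Cfap20dc, Ift57 and Cfap298, against 0.936% of all genes, and such a pair may contain the single arm too. The forkhead letters TGTTTAC stood in 6 of 68 (8.82%), against 4.05% of all genes. Among tested members, the 22 with the arm had a median log2 fold change of -0.37 and the 37 without it -0.30, a difference that was not tested. A match describes the letters only.

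To show what these upstream stretches look like, first come the 4 tested members with the most negative moderated t among those whose arm lies wholly within the 150 bases before the start. Cfap161 follows, with the most arms in 1 promoter outside the pairs, and then Ift57 and Cfap298, the tested members with a pair. Each runs 5′ to 3′ along the gene's strand up to the base before the start, over 150 bases or, for the pairs, 200. Capitals mark the arm in either orientation, or the whole pair. All are from RefSeq, build GRCm38.p6.
Mlf1 (chr3:67373947-67374096, plus strand): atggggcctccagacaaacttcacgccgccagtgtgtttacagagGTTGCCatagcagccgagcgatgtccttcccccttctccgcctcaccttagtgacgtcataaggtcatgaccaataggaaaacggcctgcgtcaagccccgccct
Cfap300 (chr9:8042876-8043025, minus strand): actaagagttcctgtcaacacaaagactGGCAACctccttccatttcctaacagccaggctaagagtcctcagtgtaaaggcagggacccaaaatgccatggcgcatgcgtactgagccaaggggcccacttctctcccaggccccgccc
Ccdc113 (chr8:95533950-95534099, plus strand): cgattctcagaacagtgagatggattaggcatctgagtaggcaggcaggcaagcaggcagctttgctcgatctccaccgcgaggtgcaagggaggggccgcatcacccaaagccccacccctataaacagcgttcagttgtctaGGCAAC
Dnaic2 (chr11:114727269-114727418, plus strand): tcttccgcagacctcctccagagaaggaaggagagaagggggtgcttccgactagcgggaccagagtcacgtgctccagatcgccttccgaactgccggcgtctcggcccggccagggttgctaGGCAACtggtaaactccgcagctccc
Cfap161 (chr7:83794840-83794989, minus strand): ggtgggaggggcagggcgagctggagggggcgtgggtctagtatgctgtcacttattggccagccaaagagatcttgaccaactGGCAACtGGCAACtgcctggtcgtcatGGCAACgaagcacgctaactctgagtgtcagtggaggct
Ift57 (chr16:49699094-49699293, plus strand): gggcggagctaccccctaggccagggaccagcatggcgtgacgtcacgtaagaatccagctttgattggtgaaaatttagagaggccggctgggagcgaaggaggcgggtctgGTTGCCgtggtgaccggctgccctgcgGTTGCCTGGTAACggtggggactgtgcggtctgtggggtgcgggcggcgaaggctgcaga
Cfap298 (chr16:90934850-90935049, minus strand): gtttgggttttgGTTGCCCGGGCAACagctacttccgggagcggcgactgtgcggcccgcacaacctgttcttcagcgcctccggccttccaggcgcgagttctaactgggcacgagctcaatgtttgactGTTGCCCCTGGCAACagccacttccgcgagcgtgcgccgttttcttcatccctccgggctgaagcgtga

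Mlf1, Cfap300, Ccdc113 and Dnaic2 each hold 1 arm, beginning 105, 122, 6 and 26 bases before the start. Cfap161 holds 3 arms, Ift57 holds 1 pair and 1 further arm, and Cfap298 holds 2 pairs. Log2 fold changes of these last 3 genes were -0.23 ± 0.13 SE, -0.22 ± 0.12 SE and -0.089 ± 0.14 SE, and the values of the first 4 are given below with their families. Cfap298 has 4 probe sets. One besides the chosen one read 261 and 176 in the wild type samples and 111 and 172 in the floxed ones (-0.58). The remaining ones, at intensities of at most 11.8, gave -0.13 and 0.21. In Dnaaf5 the arm spans the start of the gene, so it is not among those shown.

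Of the 7 outer arm genes tested, 4 had both floxed values below both wild type values, against 22.2% of all genes. That share, and the 7.13% of all genes lower at an unadjusted p under 0.05, stand beside the counts of each family and list below. Dnah5, a heavy chain often affected in primary ciliary dyskinesia, read 86.8 and 79.7 in the wild type samples and 58.9 and 57.0 in the floxed ones. The groups did not overlap, with a log2 fold change of -0.42 ± 0.12 SE, limma adjusted p = 0.170 and n = 2 per group. In what follows, intensities of wild type replicates 1 and 2 are set against those of floxed replicates 1 and 2, and brackets give the log2 fold change with its SE. Dnah9, another outer arm heavy chain, gave 111 and 154 against 86.1 and 76.8 (-0.59 ± 0.17 SE, limma adjusted p = 0.170), and Dnah11 gave 103 and 118 against 85.5 and 84.4 (-0.32 ± 0.12 SE, limma adjusted p = 0.311). Dnaic2, an intermediate chain and one of the promoters shown, read 202 and 236 against 131 and 159 (-0.55 ± 0.14 SE, limma adjusted p = 0.149). In the other outer arm genes tested the groups overlapped. Dnaic1, the other intermediate chain, gave 38.7 and 34.2 against 56.4 and 24.6, so its floxed arrays lay on either side of the wild type ones. Dnal1, a light chain, stood at -0.16, and Dnah8, a heavy chain known mainly from sperm, lay above 0, with 84.9 and 70.2 against 73.8 and 107 (0.17 ± 0.18 SE). The 7 tested genes had a median of -0.32 with 5 below 0, and none passed in limma, with 4 lower at an unadjusted p under 0.05.

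Among inner arm genes and other dynein subunits, several had floxed values far apart. Dnah2, an inner arm heavy chain, gave 97.8 and 110.02 against 67.8 and 74.5 (-0.46 ± 0.13 SE, limma adjusted p = 0.161). Dnah7a read 72.3 and 73.9 against 63.0 and 34.8, and Dnah12 87.2 and 88.8 against 91.0 and 47.9. In both, floxed 2 was much the lower array, and Dnah12 overlapped between groups. Probes for Dnah7a may also bind its near-identical copies, so its signal is uncertain. Dnah6 had the same shape, with 195 and 281 in the wild type, 273 in floxed 1 and 126 in floxed 2. Dynlrb2, a roadblock light chain, gave 2388 and 2277 against 2140.0 and 1755 (-0.26 ± 0.14 SE, limma adjusted p = 0.464). The light chain genes Dnali1 and Dnal4 overlapped, at -0.25 and -0.051. Dnah1, another heavy chain, was the 1 gene of 8 above 0 (0.14 ± 0.12 SE). The median of the 8 was -0.28, and 3 of them separated the groups with the floxed samples lower.

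The member that passed the test was Dnaaf5, a factor that helps assemble dynein arms in the cytoplasm. Its chosen probe set read 131 and 126 in the wild type samples and 38.8 and 65.2 in the floxed ones, a fall of 2.16-fold (log2 fold change -1.11 ± 0.19 SE, limma adjusted p = 0.0474). The adjusted p ran from 0.00715 to 0.691 over 11 alternative settings and was above 0.05 in 8 of them. Without wild type replicate 1 or 2 it was 0.0733 and 0.0725, and without floxed replicate 1 it was 0.0522. Dnaaf5 has 4 probe sets, and the other 3, all at intensities of at most 25.2, gave 0.061, 0.12 and 0.35. Averaging the 4 gave a log2 fold change of -0.14, so the call rests on 1 probe set. Dnaaf4, another factor of the same assembly step, gave 102 and 76.5 against 60.9 and 45.3 (-0.61 ± 0.18 SE, limma adjusted p = 0.180). Its other probe set stood at -0.49. Dnaaf2 read 91.2 and 87.1 against 74.0 and 69.3, and Dnaaf1 112 and 114 against 108 and 86.3. All 4 separated the groups in their chosen probe set, although the second probe set of Dnaaf1 stood at 0.44 and the mean of both at 0.12.

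**Figure D2:**
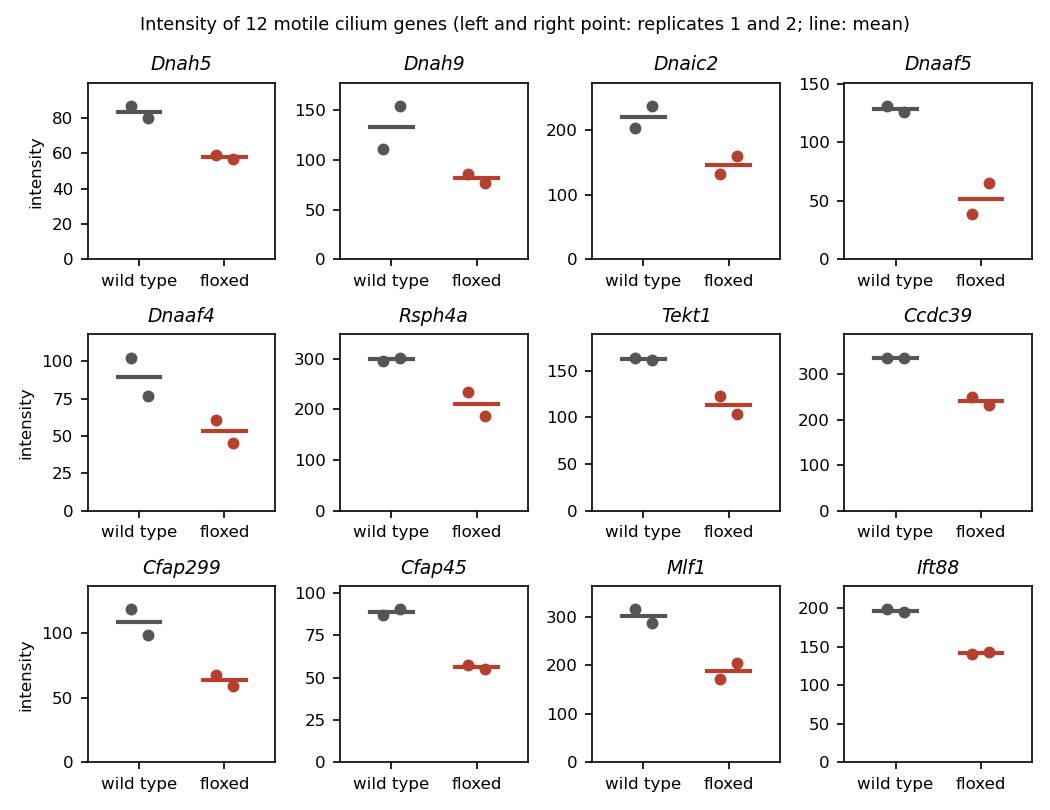
Deposited intensity (linear axis from 0, arbitrary units) of 12 genes on the 2 wild type and 2 floxed arrays, where points are single arrays and lines are group means. In each of the 12 the floxed arrays lie below the wild type arrays, with the largest ratio in Dnaaf5. All 12 belong to the 48 of 72 tested members with that order, against 22.2% of all genes tested. Members whose groups overlapped (21) or whose floxed arrays lay above (3) are not drawn.

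Radial spoke genes were lower in both floxed samples in all 5 that were tested. Rsph4a, a protein of the spoke head, gave 295 and 302 against 234 and 187 (-0.48 ± 0.14 SE, limma adjusted p = 0.185). Rsph14 read 95.2 and 77.7 against 54.9 and 50.5 (-0.57 ± 0.14 SE, limma adjusted p = 0.118), the largest difference of the 5. Rsph3a, of the spoke stalk, gave 75.5 and 93.2 against 59.0 and 63.1, and its probes may also bind a near-identical copy. Rsph1, of the spoke head, gave 588 and 562 against 549.8 and 366, with floxed 1 close to the wild type, and Rsph9 gave 226 and 204 against 194 and 170.1. None of the 5 overlapped between groups (median -0.38), and none passed in limma, with 3 lower at an unadjusted p under 0.05.

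Tektins are filament proteins inside the doublet microtubules. Tekt1 read 164 and 162 against 123 and 103 (-0.48 ± 0.13 SE, limma adjusted p = 0.157). Tekt2 gave 113 and 100.4 against 99.1 and 61.7 (-0.37 ± 0.20 SE, limma adjusted p = 0.463). Tekt4 and Tekt5 overlapped between groups. Their values of -0.18 and -0.078 changed sign without floxed replicate 2, and also without wild type replicate 1 for Tekt4 and without wild type replicate 2 for Tekt5.

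Both ruler genes lay lower. Ccdc39 read 336 and 336 against 250.02 and 231, with nearly equal wild type arrays (-0.46 ± 0.12 SE, limma adjusted p = 0.144). Ccdc40, its partner, gave 117 and 125 against 82.4 and 111 (-0.30 ± 0.15 SE, limma adjusted p = 0.456). For the central pair, Spag16 gave 142 and 132 against 88.6 and 111 (-0.41 ± 0.14 SE, limma adjusted p = 0.254) and Spag17 57.8 and 73.3 against 49.8 and 57.0. Unlike most members, Ccdc40, Spag16 and Spag17 were lower in floxed 1 than in floxed 2. Hydin, a very large central pair protein, overlapped between groups at -0.054.

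Cilia and flagella associated proteins formed the largest family, with 25 genes, 21 of them tested. Of these, 19 lay below 0 and 15 had both floxed arrays below both wild type arrays. None passed in limma, with 10 lower and 1 higher at an unadjusted p under 0.05. Their median was -0.36. Cfap299 gave 119 and 98.5 against 67.4 and 59.3 (-0.65 ± 0.14 SE, limma adjusted p = 0.0882). Cfap300, which takes part in dynein arm assembly and is among the promoters shown, read 116 and 95.6 against 63.7 and 65.6 (-0.59 ± 0.13 SE, limma adjusted p = 0.105). Cfap45, a protein of the doublet lumen, gave 86.8 and 90.4 against 57.3 and 55.1 (-0.53 ± 0.12 SE, limma adjusted p = 0.0945). In these 3 the floxed arrays were close to each other and apart from the wild type. Cfap69, of the central pair, read 185 and 163 against 121 and 103 (-0.57 ± 0.14 SE, limma adjusted p = 0.116). Cfap206, of the radial spokes, gave 220.4 and 194 against 157 and 121, and Cfap126, which helps place basal bodies, 664 and 656 against 535 and 414, with floxed 2 the lowest array in both. Cfap52, also of the doublet lumen, had a wider gap between the floxed samples, with 197 and 189.7 in the wild type, 160.4 in floxed 1 and 72.3 in floxed 2. It passed the test only without floxed replicate 1 (limma adjusted p = 0.0146, against 0.323 with all arrays).

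**Figure D3:**
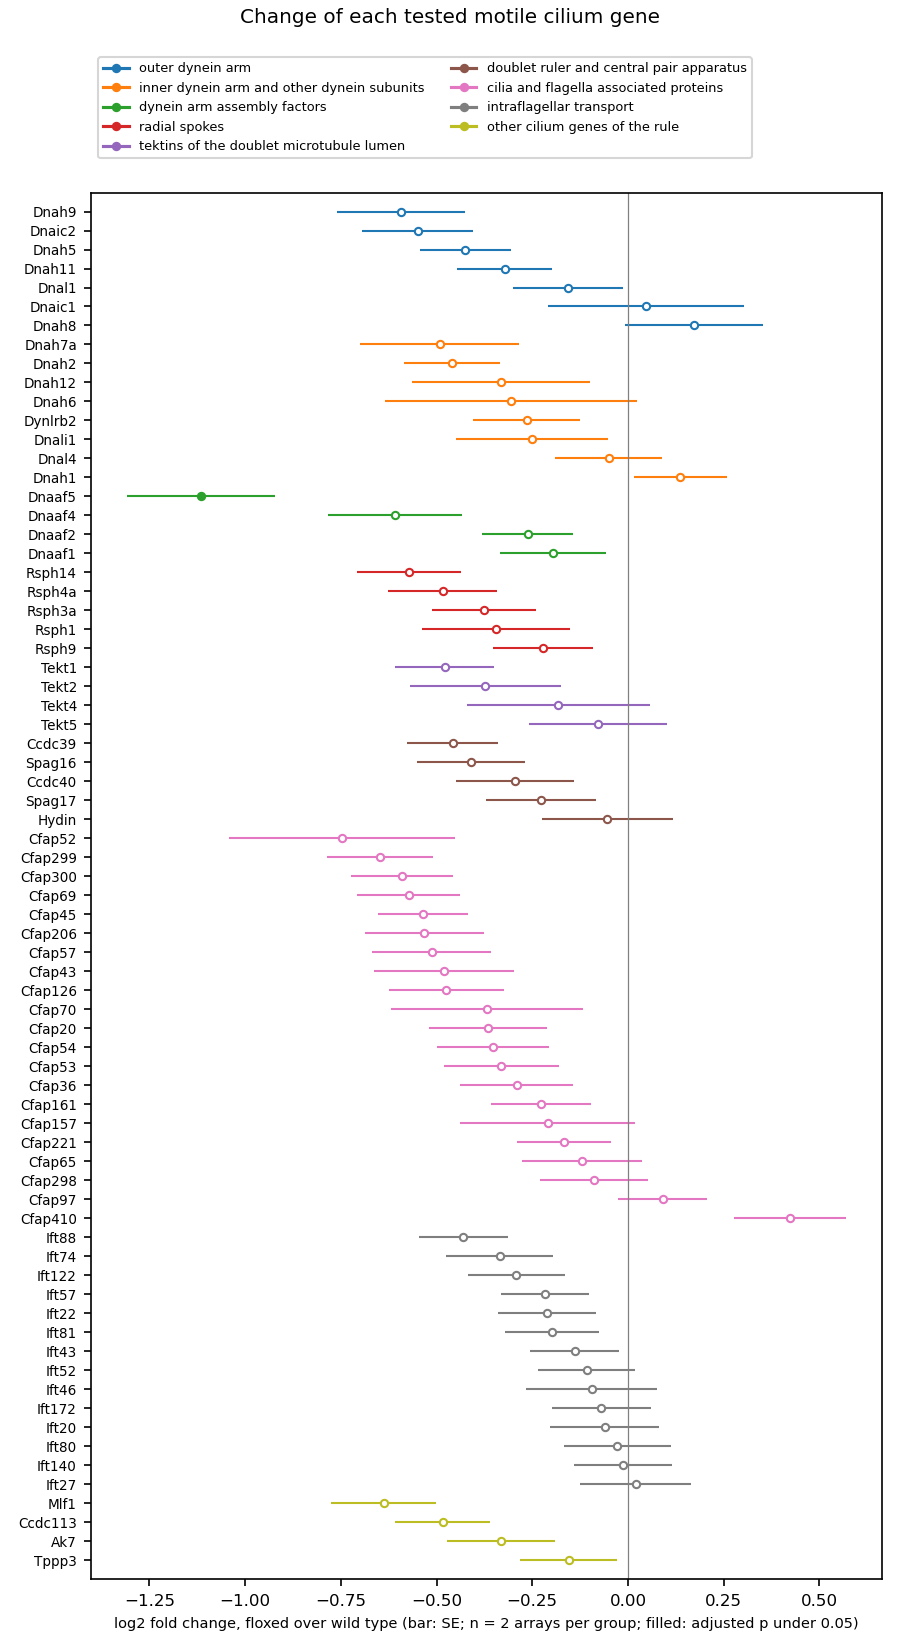
Log2 fold change of each of the 72 tested genes, floxed over wild type, with its standard error (n = 2 arrays per group), grouped and coloured by role. The filled point is Dnaaf5 at -1.11, and 66 of the 72 lie left of 0.

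Intraflagellar transport genes had the median nearest to 0 of the 9 roles. Of 14 tested, 13 lay below 0, but the median was -0.12, against -0.34 for the other 58 members, a gap that was not tested. Ift88, a core subunit of the anterograde complex, was the clearest, with 199 and 195 against 141 and 143 (-0.43 ± 0.12 SE, limma adjusted p = 0.155). Ift74 gave 323 and 303 against 271 and 221, and Ift122, of the retrograde complex, 253 and 258 against 221 and 192. Ift57, whose promoter holds the pair, read 341 and 344 against 292 and 293, a small difference with little spread within each group. The groups overlapped for 7 of the 14, among them Ift20, Ift80, Ift140 and Ift172, which ranged from -0.070 to -0.012. The other probe set of Ift80, at lower intensities, gave 94.1 and 63.1 against 46.9 and 51.5 (-0.52). None of the 14 passed in limma, with 2 lower at an unadjusted p under 0.05.

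Of the 4 remaining genes, Mlf1, the first of the promoters shown, came closest to the threshold. It read 315 and 286 against 171 and 205 (1.56-fold, log2 fold change -0.64 ± 0.14 SE, limma adjusted p = 0.0909), and both floxed arrays lay well below the wild type. With the trend and robust options of limma it passed, at an adjusted p of 0.0262. Ccdc113, another of those promoters and a protein of the axoneme and the cilium base, gave 176 and 171 against 127 and 112 (-0.48 ± 0.12 SE, limma adjusted p = 0.142). Ak7, an adenylate kinase of the axoneme, gave 532 and 571 against 480.2 and 393. Tppp3, a tubulin binding protein, gave 2593 and 2352 against 2316 and 2123 (-0.15 ± 0.13 SE, limma adjusted p = 0.642).

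The 9 members too low to test were Cfap20dc, Cfap47, Cfap61, Cfap97d1, Dnaaf6, Dnah17, Rsph6a, Spag6 and Tekt3, with single intensities of 0.858 to 24.6. With them included, 70 of 81 lay below 0 with a median of -0.29. Of all 130 probe sets of the members, 105 lay below 0. Among 34 members with several probe sets, 18 had all of them below 0, and none had probe sets past 0.5 in both directions.

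Ciliated cell genes outside the naming rule were also mostly lower. Of 26 other airway ciliated cell markers tested, 24 lay below 0 (median -0.45). The groups separated with the floxed samples lower for 21, against 22.2% of all genes tested. None passed in limma, and 18 were lower at an unadjusted p under 0.05, against 7.13% of all genes. Tspan1, a tetraspanin, gave 619.8 and 533 against 376 and 278 (-0.80 ± 0.17 SE, limma adjusted p = 0.0898). Nek5, a kinase of the NIMA family, gave 139 and 143 against 84.2 and 89.0 (-0.61 ± 0.12 SE, limma adjusted p = 0.0626). Riiad1 read 240.5 and 242 against 159.7 and 116. Sec14l3, a lipid binding protein, lay above 0 with 8444 and 8491 against 9586 and 8876. The summed intensity of the 29 markers measured was 18005 and 18123 against 17554 and 15271, and Sec14l3, higher in the floxed samples, made up much of it.

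Of 60 tested axoneme and assembly genes outside the rule, 53 lay below 0 (median -0.33), with none passing in limma and 26 lower at an unadjusted p under 0.05. Tctex1d4, Nme5 and Enkur stand in this list and in that of the ciliated cell markers. Lrguk gave 87.0 and 96.5 against 53.3 and 46.0 (-0.72 ± 0.13 SE, limma adjusted p = 0.0511). Ccdc151, which docks the outer arm, gave 67.8 and 64.1 against 40.4 and 33.0, and Lrrc6, an assembly factor, 104 and 97.7 against 65.3 and 60.1. All 3 had both floxed arrays well below the wild type. Other transport and BBSome genes, 35 tested, had a median of -0.18, none passing in limma and 8 at an unadjusted p under 0.05, 7 of them lower. Ttc30b, a transport subunit, gave 316 and 326 against 225 and 218.

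Regulators of ciliated cell fate were listed together with genes of centriole duplication such as Plk4. This mixed list stood nearer to 0, with a median of -0.071 over 16 genes, 11 of them below 0. None passed in limma, and 4 had an unadjusted p under 0.05, 3 of them lower. Foxj1, the master transcription factor of motile cilia, read 275 and 272 against 226 and 213 (-0.30 ± 0.12 SE, limma adjusted p = 0.323), without overlap between groups. Rfx2 and Rfx3, which bind X-boxes, gave 31.4 and 42.8 against 45.3 and 28.2 and 249.6 and 142 against 149 and 146, so both overlapped. Myb and Ccno, which act early in the differentiation of multiciliated cells, also overlapped (-0.028 and 0.011), and the signs of Rfx2, Rfx3, Myb and Ccno each changed with some single array left out. The 3 probe sets of Myb ran from -0.47 to -0.028, and their mean gave -0.27. Deup1, which takes part in the multiplication of centrioles, gave 56.3 and 68.3 against 47.8 and 28.8. Fank1, also on the ciliated cell marker list, gave 170.5 and 150.5 against 109 and 117 (-0.45 ± 0.13 SE, limma adjusted p = 0.167). Plk4, a kinase needed for centriole duplication in dividing cells as well, had higher values in the floxed samples, at 131 and 136 against 200.1 and 247 (0.67 ± 0.14 SE, limma adjusted p = 0.0798).

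Markers of other cell types differed by more or by less than the cilium genes on the same arrays. Of 11 mucous and serous airway genes tested, 9 lay below 0, with a median of -1.98. In limma 7 passed with lower floxed values, against 0.738% of all genes. However, 3 of the 11 passed the filter through the wild type level alone. Scgb3a1, a secretoglobin, gave 3158 and 2906 against 79.8 and 236, and Bpifb1, an airway surface protein, 287 and 250.3 against 18.7 and 44.1. The summed intensity of the 17 genes measured was 15612 and 16238 against 14115 and 11837, and Lyz1, at 9283 and 9185 against 13452 and 10799, made up much of it. Club cell genes, from the secretory cells that share the small airways with ciliated cells, had a median of -0.28 over 15 genes, 9 below 0. None passed in limma, with 6 at an unadjusted p under 0.05, 5 of them lower. Scgb1a1, their defining secretoglobin, gave 14552 and 14417 against 19539 and 16203 (0.30 ± 0.14 SE, limma adjusted p = 0.399), and was among the 6 above 0. The 3 with the largest absolute moderated t were lower. Kcnk2 gave 356 and 381 against 234 and 239.6 (-0.60 ± 0.12 SE, limma adjusted p = 0.0672). Chad gave 90.5 and 153 against 46.8 and 49.9 (-1.06 ± 0.22 SE, limma adjusted p = 0.0752). Gsta3 gave 1872 and 2021 against 1519.8 and 1387 (-0.42 ± 0.12 SE, limma adjusted p = 0.193). The summed club cell intensity was 74632 and 75899.8 against 86670.0 and 74006. Basal cell genes were mostly too low, with 3 of 11 tested and Krt5, a keratin that defines these cells, at 30.3 and 7.42 against 3.41 and 12.5. The 3 tested had a median of -0.64, with none passing in limma and 2 lower at an unadjusted p under 0.05. These were Aqp4, a water channel, at 116 and 163 against 80.6 and 84.4 (-0.64 ± 0.17 SE, limma adjusted p = 0.144) and Pdpn, a membrane glycoprotein also on the type 1 list, at 1642 and 1859 against 1075 and 1072 (-0.69 ± 0.13 SE, limma adjusted p = 0.0518). Snai2, a transcription factor, gave 546 and 589 against 629.5 and 613.

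Type 2 and type 1 alveolar genes had medians of 0.10 and 0.075, with none passing in limma and 1 in each list at an unadjusted p under 0.05, in opposite directions. In the type 2 list it was Sftpc, a surfactant protein, with higher floxed values (9204 and 8743 against 13618 and 10831, 0.44 ± 0.15 SE, limma adjusted p = 0.246). In the type 1 list it was Pdpn, with the lower floxed values given above. The other probe set of Sftpc pointed the other way, at -0.29. Sftpc and the club cell gene Scgb1a1 stand near the top of the intensity range. The highest intensities of the wild type arrays were 14910 and 14417, against 19539 and 16645 on the floxed ones. Of these, 14417 and 19539 are the values of Scgb1a1 itself. Quantile normalization took Ager of the type 1 list from 0.23 to -0.020 and Lyz2 of the type 2 list from 0.24 to -0.013. The part of array scale in the higher values was not tested. Neuroendocrine genes, 2 tested, had a median of -0.015, with none passing in limma and 0 at an unadjusted p under 0.05. Outside the epithelium, all 14 cardiac muscle genes tested lay below 0 (median -2.44). So did all 5 adipose genes (median -1.13) and 5 of 6 genes of cartilage and smooth muscle (median -0.71). In limma 12, 4 and 2 of them passed with lower floxed values, against 0.738% of all genes. Of the genes tested, 7 cardiac and 2 adipose genes passed the filter through 1 group alone. Summed cardiac intensity was 5216 and 7700.3 against 718 and 579, and summed adipose intensity 1427 and 1104 against 267 and 275. The part of tissue make-up in the lower signal of the cilium genes was not tested.

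**Figure D4:**
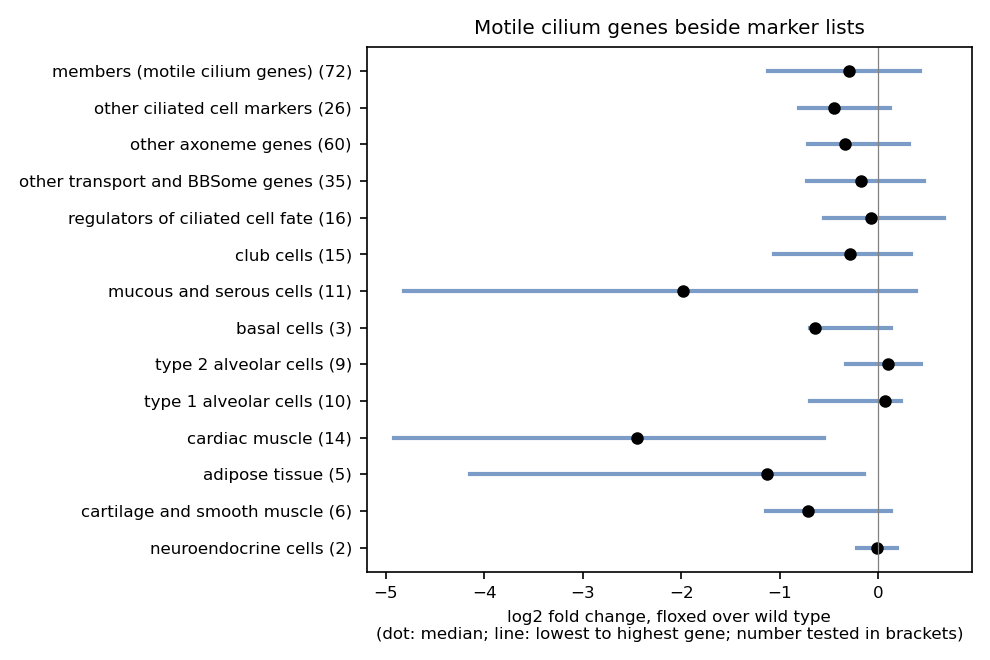
Log2 fold change, floxed over wild type, of the 72 tested motile cilium genes and of 13 marker lists, where dots are medians, lines run from the lowest to the highest gene and brackets give the number tested. The median of the cilium genes (-0.30) lies between that of the other ciliated cell markers (-0.45) and that of club cell genes (-0.28), and nearer to 0 than those of mucous (-1.98) and cardiac (-2.44) genes.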

How the data were processed

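Lung RNA of 4 samples was hybridised to 1 single-colour Affymetrix array each, per the labels. The deposited values are linear intensities per probe set. Per the submitters' processing notes they come from Affymetrix Expression Console, and its version, the signal algorithm and a genome build were not given in the sources used here. The trimmed mean of the deposited intensities was 150.001 on every array, so arrays had been scaled before deposit. No detection calls or backgrounds were used, and the number of arrays limits the precision. Array medians were 32.1 to 34.3.

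Probe sets with 1 gene symbol (34958 of 45101, with 932 naming several and 9160 unnamed here) gave genes, and each gene took its probe set with the highest mean, giving 18193 genes without control probe sets. Values were log2(intensity + 16), which understates differences of low genes. Over the probe sets with 1 gene symbol, array medians on this scale differed by at most 0.055, so no further normalization was applied. Genes under the 30th percentile of mean level were left out. The test was limma's moderated test (version 3.58.1 under R 4.3.3; functions lmFit and eBayes, two-sided, no covariates, 2 residual degrees of freedom), with Benjamini-Hochberg adjustment over 12735 genes and a threshold of 0.05. The procedure was tested on simulated data. No label states that arrays come from separate animals, so p-values measure only the spread between samples, and that spread may be technical. Alternatives were another pseudocount, no filter, quantile normalization, an intensity trend with robust prior, the mean of all probe sets, a replicate block and leaving out each array.

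Members and gene lists were chosen with earlier results of these data known. Genes picked for naming were called members, up to 4 per role and 3 per list by moderated t, and called list genes. Members with probe sets past 0.5 in opposite directions and a fixed set of ciliated cell regulators were added. Not all genes so picked are named in the text. Other named genes served to complete a family, a list or a sequence set and were chosen after their values were seen. In all, 8 genes stand in more than 1 list.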

Additional observations from a re-analysis of the deposited data

How the results depend on the processing

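The median log2 fold change of the cilium genes stayed below 0 under all 11 alternatives, from -0.17 without floxed replicate 2 to -0.41 without floxed replicate 1, the 2 settings that moved it beyond the spread between arrays. Under them 55 and 66 of the 72 genes lay below 0. The count of members passing the test, 1 in the report, was 0 with a pseudocount of 1, no filter on low genes, quantile normalization or the mean of all probe sets, and 2, Dnaaf5 and Mlf1, with a pseudocount of 64 or an intensity trend and robust prior. With 1 array left out it was 0 to 1, the 1 being Cfap52 without floxed replicate 1 and Dnaaf5 without floxed replicate 2. Over all genes the count was 222, and it became 105 with a pseudocount of 1, 360 with 64, 69 with no filter, 387 with the trend and robust prior, and 146 to 248 with 1 array left out, the lowest without wild type replicate 2. Replicate numbers did not pair the samples (correlation of deviations -0.00058). With a replicate block 0 members passed, as Dnaaf5 had an adjusted p of 0.0558 in limma, and 189 of all genes did.

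Of 96 genes picked for naming 12 changed sign under some alternative, and none of the 12 had passed the test. Quantile normalization gave -0.020 for Ager, -0.013 for Lyz2 and 0.012 for Rfx2, and the mean of all probe sets 0.12 for Dnaaf1 and -0.026 for Snai2. With single arrays left out, values ran from -0.70 to 0.040 for Dnah12, -0.46 to 0.092 for Tekt4, -0.27 to 0.11 for Tekt5, -0.18 to 0.13 for Myb, -0.25 to 0.22 for Rfx2, -0.70 to 0.049 for Rfx3, -0.16 to 0.19 for Ccno and -0.44 to 0.00016 for Uchl1. The cause was not tested. With 1 array of a group left out, the lone array is assumed to vary like the other group.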

Other observations

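Among the tested cilium genes 55 of 72 were lower in floxed 2 than in floxed 1, and for the ciliated cell markers outside the rule 20 of 26 were. Among mucous and serous genes 3 of 11 were lower in floxed 2. Several of these 11 were near the lowest levels on both floxed arrays, such as Reg3g at 2.56 and 3.90. Bpifb1 stood at 18.7 in floxed 1 and 44.1 in floxed 2, and Scgb3a1 at 79.8 and 236. Over all genes tested 6495 of 12735 were lower in floxed 2. The difference between these lists was not tested.

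Cfap410 had the largest difference in the upward direction among the 72, with 48.9 and 56.4 against 67.0 and 85.7 (log2 fold change 0.42 ± 0.15 SE, limma adjusted p = 0.258). It was singled out after its values were seen, and its second probe set stood at 0.039. Cfap97 and Dnah1 were the other two members with both floxed arrays above both wild type arrays, at 0.090 and 0.14. Their other probe sets lay below 0, at -0.45 and -0.18 for Cfap97 and -0.16 for Dnah1.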
